A study of Mus musculus with 2 samples.

Results

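Mir193a and Mir365-2 on chromosome 11 and Mir193b and Mir365-1 on chromosome 16 form a pair of paralogous microRNA (miRNA) clusters, each with 1 miR-193 hairpin followed by 1 miR-365 hairpin. The 4 genes were taken by symbol from the 2202 miRNA genes of the deposited tables, and all 4 were measured. The tables come from small RNA libraries of adrenal gland, the paired endocrine organ above the kidneys that makes steroid hormones and catecholamines. The single group consisted of female B6CASTF1/J mice, the first-generation cross of C57BL/6J with CAST/EiJ, aged 18 to 20 months, with no treatment named in the labels. It holds 2 libraries, called biological replicates 1 and 2, from distinct tissue samples entered under the same donor record, so their spread may not be one between animals. No other tissue, age, sex or strain was analysed here, so the comparisons are between the paralogs, between cluster neighbours and between the libraries.

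A miRNA gene is transcribed as a long precursor from which a hairpin is cut, and the hairpin yields a 5p and a 3p arm of which one is usually kept to guide silencing of messenger RNAs. Bases 2 to 8 of the guide, the seed, carry most of the pairing to targets. In mouse, the chromosome 16 cluster has been described as enriched in brown fat, where miR-193b promoted brown adipocyte differentiation in culture, although mice lacking the cluster were reported to form brown fat. miR-193a and miR-193b are also known as growth-restraining miRNAs in several tumour types, and the genes are expressed in many tissues. The adrenal gland is embedded in fat, but the tables hold miRNA genes only, so the messenger RNAs that define adipocytes or adrenal cells could not be examined, and none of the 4 genes marks fat alone.

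The mature sequences set what the counts of each gene can hold, so they are shown first, from RefSeq on GRCm38.p6 (the assembly behind mm10), 5′ to 3′, with the seed in capitals. The 3p arms of the miR-193 genes share their seed.
miR-193a-3p: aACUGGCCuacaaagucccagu
miR-193b-3p: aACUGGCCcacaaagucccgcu
Of 22 bases 19 were identical, and the differences from miR-193a-3p to miR-193b-3p, counted from 1 at the 5′ end, were U9C, A20G and G21C. The 5p arms of the same hairpins differed in the seed as well.
miR-193a-5p: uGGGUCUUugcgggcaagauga
miR-193b-5p: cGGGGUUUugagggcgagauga
They had 17 of 22 bases in common, with the substitutions U1C, U5G, C6U, C11A and A16G. The miR-365 genes are more alike on both arms, with 1 shared mature 3p sequence and a pair of 5p arms that can be told apart.
miR-365-3p (both loci): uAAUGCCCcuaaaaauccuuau
miR-365-1-5p: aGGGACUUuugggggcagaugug
miR-365-2-5p: aGGGACUUucaggggcagcugug
From miR-365-1-5p to miR-365-2-5p the 23 bases differed at U10C, G11A and A19C, outside the seed. No other RefSeq mouse mature miRNA carried any of these seeds.

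The hairpins show how far the paralogs resemble each other beyond the mature arms. Capitals mark the longest stretch that the members of a pair share.
Mir365-1 hairpin (chr16:13453840-13453926, + strand): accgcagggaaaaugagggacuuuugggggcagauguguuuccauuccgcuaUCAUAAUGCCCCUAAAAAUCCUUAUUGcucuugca
Mir365-2 hairpin (chr11:79726400-79726511, + strand): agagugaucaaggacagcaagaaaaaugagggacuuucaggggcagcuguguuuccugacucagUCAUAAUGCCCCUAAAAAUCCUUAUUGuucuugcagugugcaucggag
Mir193a hairpin (chr11:79711969-79712034, + strand): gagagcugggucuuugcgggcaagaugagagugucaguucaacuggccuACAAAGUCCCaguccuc
Mir193b hairpin (chr16:13449523-13449601, + strand): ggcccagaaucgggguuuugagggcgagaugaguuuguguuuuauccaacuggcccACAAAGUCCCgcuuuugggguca
The miR-365 hairpins shared 27 bases that span the whole 3p arm, so 6 of the 91 windows of 22 bases in Mir365-2, and 6 of the 66 in Mir365-1, occur in the other gene. The longest stretch common to Mir193a and Mir193b was 10 bases, and 0 of their 45 and 58 windows were shared with each other or with any other counted miRNA gene. The deposited tables set reads that align to several places apart from the gene counts. A full-length miR-365-3p read matches both loci equally, so the counts of Mir365-1 and Mir365-2 leave it out and understate miR-365. In mouse, miR-365-3p is the arm usually reported as the guide. The miR-193 counts carry no such limit from each other, although other matches in the genome were not searched here, and counts were given per hairpin, so the arms were not resolved.

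**Figure D1:**
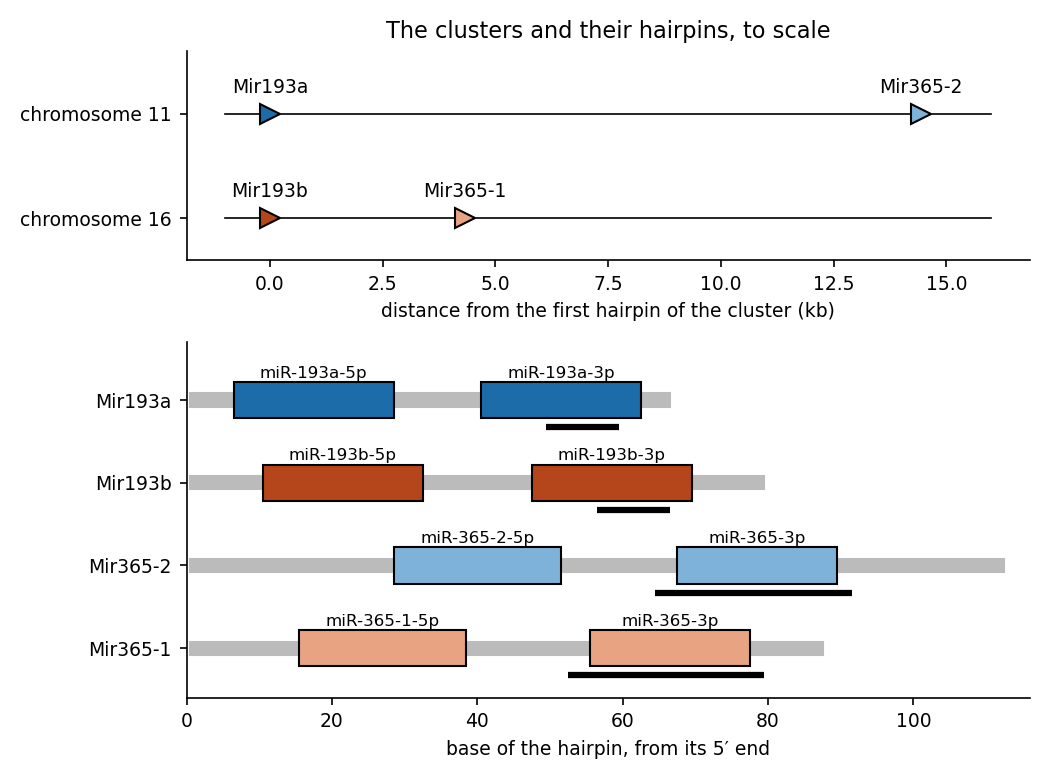
Upper panel: position of the hairpins of each cluster as distance in kb from the first hairpin, with arrowheads in the direction of transcription. Lower panel: each hairpin in bases from its 5′ end (grey bar), with its mature arms (boxes) and the longest stretch shared with its paralog (black line), 27 bases for the miR-365 pair and 10 bases for the miR-193 pair.

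Both clusters lie on the + strand with the same gene order but different spacing. On mm10 with GENCODE M21, Mir193a (ENSMUSG00000065395.1) and Mir365-2 (ENSMUSG00000065489.1) were 14365 bases apart in an intergenic region, 13945 bases downstream of the end of the protein-coding gene Rab11fip4. Mir193b (ENSMUSG00000076972.2) and Mir365-1 (ENSMUSG00000065449.1) were 4238 bases apart, 31993 bases downstream of Mrtfb, a coactivator of serum response factor. They lay opposite to Gm15738, a noncoding gene on the - strand, and inside the RefSeq noncoding genes Gm32817 and Gm53058. No opposite-strand read was counted at any member in either library, and counts with strand ignored were equal to those used. The nearest other miRNA genes were Mir6365, 17153 bases beyond Mir365-1, and Gm23840, 957446 bases from Mir193a, and each had 0 counts in both libraries.

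The miR-193 genes were moderately abundant in the adrenal gland and the counted part of the miR-365 genes was low. Mir193a had 959 reads in replicate 1 and 2160 in replicate 2, which is 370 and 943 counts per 1000000 own-strand miRNA counts (CPM), a mean of 657 ± 405 CPM (SD, n = 2). Mir193b had 1361 and 911 reads, 525 and 398 CPM, a mean of 462 ± 90.4 CPM (SD, n = 2). The ranges of the 2 genes overlapped, since Mir193a lay below Mir193b in replicate 1 and above it in replicate 2. Mir365-2 had 72 and 117 reads, 27.8 and 51.1 CPM, a mean of 39.4 ± 16.5 CPM (SD, n = 2). Mir365-1 had 31 and 28 reads, 12.0 and 12.2 CPM, a mean of 12.1 ± 0.179 CPM (SD, n = 2). Mir365-2 lay above Mir365-1 in both libraries, and both lay below the miR-193 genes. By mean CPM the order was Mir193a, Mir193b, Mir365-2 and Mir365-1, at ranks 99, 115, 230 and 300 of the 339 miRNA genes with at least 10 reads in each library. Per base of hairpin, which is 66, 79, 112 and 87 bases long in that order, the CPM of Mir193a was 5.61 and 14.3, of Mir193b 6.65 and 5.03, of Mir365-2 0.248 and 0.456, and of Mir365-1 0.138 and 0.140 in replicates 1 and 2, so the order within each library was as for CPM.

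**Figure D2:**
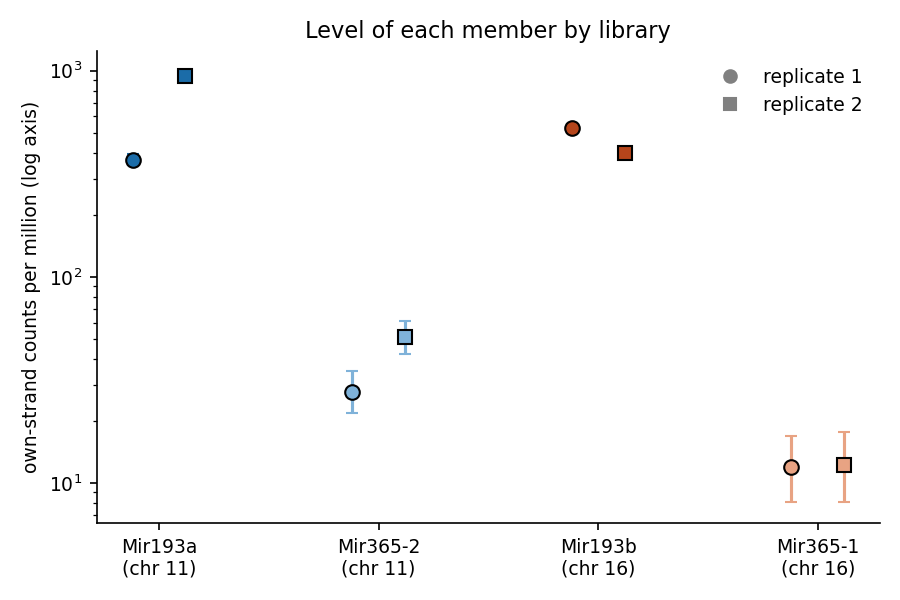
CPM on a log axis for each member in replicate 1 (circles) and replicate 2 (squares), with exact Poisson 95% intervals, which cover counting error only and are smaller than the symbol for the miR-193 genes. Mir193a and Mir193b change places between the libraries, from 370 and 525 CPM to 943 and 398 CPM.

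Together the 4 genes held 2423 of 2590051 own-strand counts in replicate 1 and 3216 of 2291030 in replicate 2, or 936 and 1404 CPM, a mean of 0.117% of counts. Reads that align to several places numbered 24.0% of all reads in replicate 1 and 28.0% in replicate 2. How many of them were miR-365-3p cannot be read from the tables. Exact Poisson 95% intervals of the CPM were 347 to 394 and 903 to 983 for Mir193a, 498 to 554 and 372 to 424 for Mir193b, 21.8 to 35.0 and 42.2 to 61.2 for Mir365-2, and 8.13 to 17.0 and 8.12 to 17.7 for Mir365-1. The intervals of replicates 1 and 2 overlapped for Mir365-1 and were separate for the other members. PCR copies are not independent molecules, so these intervals cover counting error only.

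The levels of other miRNA genes with a shared arm give a scale for the miR-365 counts. Of genes with 2 arms annotated in RefSeq, 61 had, like Mir365-1 and Mir365-2, exactly 1 arm found at a further counted miRNA gene. In this class 41 were detected (67.2%), with a median of 21.7 CPM over all 61 and 58.4 CPM over the detected genes, and Mir365-2 and Mir365-1 stood at places 24 and 35 of the 61. Of the 577 genes with no shared arm, among them Mir193a and Mir193b, 214 were detected (37.1%), with a median of 1.23 CPM over all and 194 CPM over the detected genes, so the order of the classes depends on whether undetected genes are included. Of the 19 genes with both arms shared, 2 were detected. These classes were drawn up after the levels of the members were known and describe the tables only.

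Between the paralogs, the balance of miR-193 reads turned over from one library to the other, while that of the miR-365 reads kept its direction. In replicate 1 Mir193b had 1.42 times the reads of Mir193a (exact conditional 95% interval 1.31 to 1.54), and in replicate 2 Mir193a had 2.37 times the reads of Mir193b (2.19 to 2.56). Mir193a thus supplied 41.3% of the miR-193 reads in replicate 1 and 70.3% in replicate 2, and on the log2 scale the ratio of Mir193a over Mir193b was 0.37 ± 1.24 (SD, n = 2), a mean smaller than its spread. The ratio was 3.36 times higher in replicate 2, a log2 change of 1.75 (95% interval 1.58 to 1.92; Fisher's exact test, two-sided, adjusted p = 5.86e-101 over the 5 ratios tested). This test takes reads as independent and does not depend on how the libraries are scaled. It compares these 2 libraries and has no replicate check.

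Mir365-2 had 2.32 times the reads of Mir365-1 in replicate 1 (1.50 to 3.66) and 4.18 times in replicate 2 (2.75 to 6.56), a log2 ratio of 1.64 ± 0.60 (SD, n = 2). These reads are ones that could be placed at a single locus, so the ratio says nothing of which locus made the shared 3p arm. Its change between the libraries had the same sign as that of the miR-193 pair, with a log2 size of 0.85 and an interval of -0.07 to 1.76, and did not pass (Fisher's exact test, adjusted p = 0.0860). Summed over each cluster, chromosome 11 had 1031 and 2277 reads and chromosome 16 had 1392 and 939. The sum followed the miR-193 genes, with a log2 change of the chromosome 11 over chromosome 16 ratio of 1.71 (1.55 to 1.87; Fisher's exact test, adjusted p = 6.07e-101).

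Within a cluster, miR-193 reads exceeded the miR-365 reads in every case. Mir193a had 13.3 times the reads of Mir365-2 in replicate 1 (10.5 to 17.2) and 18.5 times in replicate 2 (15.3 to 22.4). Mir193b had 43.9 times the reads of Mir365-1 in replicate 1 (30.8 to 64.9) and 32.5 times in replicate 2 (22.4 to 49.2). On the log2 scale these ratios were 3.97 ± 0.33 on chromosome 11 and 5.24 ± 0.31 on chromosome 16 (SD, n = 2 each), and neither cluster's ratio passed the test of a change between the libraries (Fisher's exact test, log2 changes of 0.47 and -0.43, adjusted p = 0.0596 and 0.283). The intervals of these changes, 0.01 to 0.92 and -1.23 to 0.37, do not show that the neighbours kept a fixed ratio. The miR-365 counts in these ratios leave out the full-length 3p reads.

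**Figure D3:**
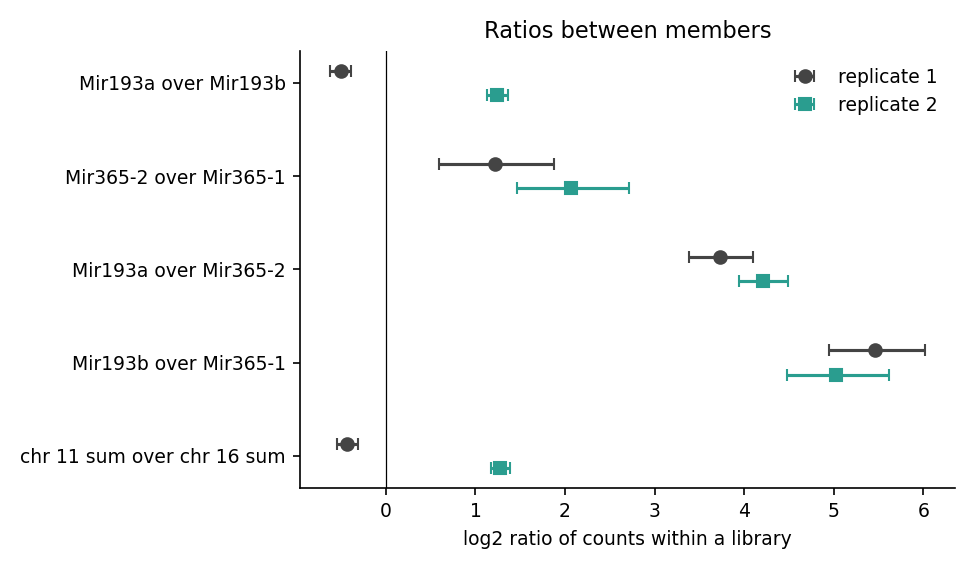
Log2 ratio of read counts between members within replicate 1 (circles) and replicate 2 (squares), with exact conditional 95% intervals. The ratio of Mir193a over Mir193b and the ratio of the cluster sums lie on opposite sides of 0 in the 2 libraries, and the other 3 ratios lie above 0 in both.

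Mir193a differed more than most other miRNA genes of the same libraries. Each of the 367 miRNA genes with at least 20 reads over both libraries was compared between the libraries by an exact conditional binomial test (two-sided) with edgeR's TMM scaling and Benjamini-Hochberg adjustment over the 367. Mir193a was 2.61-fold higher in replicate 2 (log2 ratio 1.39, 95% interval 1.28 to 1.50, adjusted p = 1.13e-146). It had the 17th largest ratio in that direction and the 39th largest in either direction. Of the tested genes 29 were over 2-fold higher in replicate 2 and 40 over 2-fold higher in replicate 1, and the median absolute log2 ratio over all tested genes was 0.46. Mir365-2 was 1.88-fold higher in replicate 2 (log2 ratio 0.91, 0.48 to 1.36, adjusted p = 4.57e-05, exact test). Mir193b was 1.29-fold higher in replicate 1 (log2 ratio -0.36, -0.49 to -0.24, adjusted p = 7.66e-09, exact test), a difference smaller than that median. For Mir365-1 the log2 ratio was 0.07 (-0.72 to 0.85), short of the threshold (exact test, adjusted p = 0.945). With 31 and 28 reads its interval still includes a difference of the size seen for Mir193b.

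Of the 4 members, 3 differed between the libraries, against 62.7% of all tested genes, so the share is near the background. The 2 members that were higher in replicate 2 stand against 30.2% of tested genes, and the 1 member higher in replicate 1 against 32.4%. Over all tested genes 111 were higher in replicate 2 and 119 in replicate 1, and with TMM factors taken over all genes with a read, a choice made after seeing the data, these numbers were 85 and 139 and the median log2 ratio moved from 0.02 to -0.12. Under that scaling Mir193a had a log2 ratio of 1.25, Mir365-2 of 0.78, Mir193b of -0.50 and Mir365-1 of -0.06. Like Fisher's test above, this test knows no spread other than that of counting.

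**Figure D4:**
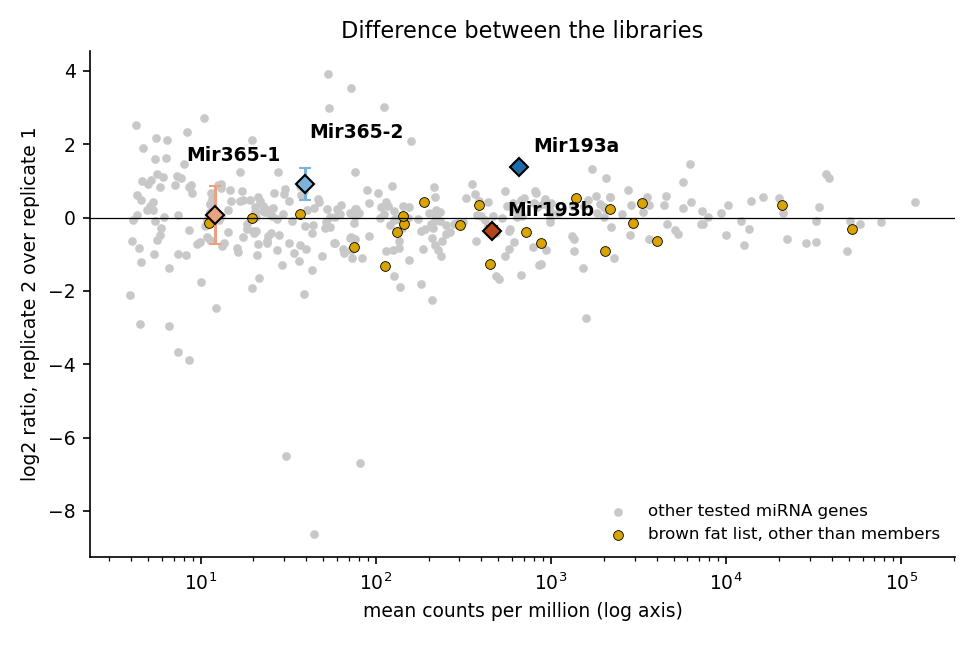
Log2 ratio of replicate 2 over replicate 1 against mean CPM (log axis) for the 367 tested miRNA genes. Diamonds are the members, with exact conditional 95% intervals, gold points the other miRNAs of the brown fat list and grey points the remaining genes. Mir193a stands at 1.39 and Mir193b at -0.36.

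Some lettered paralogs moved in opposite directions in these libraries. Of 53 pairs of tested genes whose names differ only by the final letter and that do not overlap, 7 had members that differed in opposite directions, Mir193a and Mir193b among them. Their log2 ratios were 1.75 apart, the third largest distance after Mir208a and Mir208b (2.14), which were both higher in replicate 1 and whose distance depends on the prior count since Mir208a had 0 reads in replicate 2, and Mir99a and Mir99b (1.78), which went in opposite directions. The median distance was 0.48. Many of the 53 pairs lie on the same chromosome, and most of the opposite pairs lie on different chromosomes, as Mir193a and Mir193b do. Over all tested genes 30.2% were higher in replicate 2 and 32.4% in replicate 1, so opposite calls also arise between unrelated genes. This set of pairs was defined after the members' values were seen, and a gene can enter several pairs, so the ranks are a description. Among the opposite pairs, Mir30a and Mir30b each entered with Mir30d and again with Mir30e, so the 7 are not separate families.

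Few miRNA genes had levels close to Mir193a in both libraries. By Euclidean distance of log2(CPM + 1) over the 2 libraries, its nearest detected genes were Mir376a at 0.52, Mir672 at 0.69 and Mir485 at 0.69, whose log2 ratios between the libraries were 0.73, 0.52 and 0.47. Nearest to Mir193b were Mir183 at 0.11, Mir137 at 0.14 and Mir668 at 0.27. Mir365-2 was closest to Mir702 at 0.13, Mir1188 at 0.13 and Mir331 at 0.21, and Mir365-1 to Mir384 at 0.06, Mir5113 at 0.12 and Mir6538 at 0.14. With 2 libraries this likeness rests on 2 values per gene.

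Other miRNAs described in brown fat differed between the libraries in both directions. The list held 26 genes besides the members, all of which also occur in other tissues. Of its 22 tested genes 6 were higher in replicate 2, 11 were higher in replicate 1 and 5 did not pass the exact test. The share higher in replicate 2 was 27.3%, near the 30.2% of all tested genes, and the share higher in replicate 1 was 50.0%, against 32.4%. The median log2 ratio was -0.17, against 0.02 over all tested genes, and the summed level was 98035 CPM in replicate 1 and 86922 CPM in replicate 2, most of it Mir378a, encoded in an intron of Ppargc1b, with 58448 and 45933 CPM. Mir193a and Mir365-2 had the largest log2 ratios toward replicate 2 of the 26 tested genes of the list with the members included. In size, Mir26a-1 (-1.31), Mir106b (-1.27) and Mir34a (-0.915) exceeded Mir365-2 (0.911) in the other direction.

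Among miRNAs described as promoting brown or beige fat, Mir203 (log2 ratio 0.53), Mir30c-1 (0.42), Mir328 (0.40), Mir26b (0.35) and Mir30c-2 (0.35) were higher in replicate 2. Mir378a (-0.31), Mir455 (-0.16), Mir30b (-0.38), Mir182 (-0.39), Mir26a-1 (-1.31) and Mir26a-2 (-0.79) were higher in replicate 1. Mir32 (0.10), Mir196a-2 (0.05), Mir129-1 (-0.02), Mir196a-1 (-0.15) and Mir129-2 (-0.17) did not pass. Mir378b was not tested, with 13 and 4 reads. Members of this group therefore differed in both directions, with a median of -0.09 over 16 tested genes.

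Among those described as restraining it, the median was -0.67, and 5 of 6 tested genes were higher in replicate 1. Over all tested genes that share was 32.4%. The 5 were Mir106b (-1.27), Mir34a (-0.92), Mir27a (-0.69), Mir27b (-0.65) and Mir155 (-0.22). Mir93 (0.23), which shares a cluster with Mir106b, was higher in replicate 2. Mir133a-1, Mir133a-2 and Mir133b, which target the brown fat regulator Prdm16, had 0 reads in both libraries, which allows up to 1.16 CPM in replicate 1 and 1.31 CPM in replicate 2 of reads that align to a single place. The list was grouped by these roles after its values were seen.

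**Figure D5:**
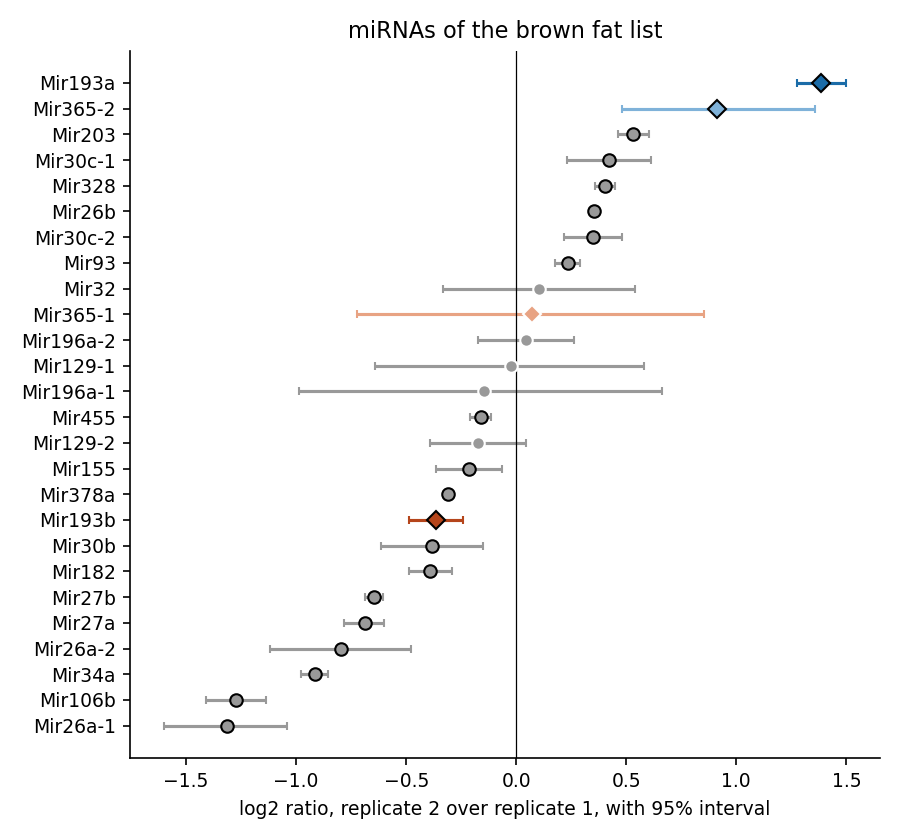
Log2 ratio of replicate 2 over replicate 1 with exact conditional 95% intervals for the 26 tested genes of the brown fat list. Diamonds are the members, circles the other genes, and a black outline marks genes that passed the test. Mir193a and Mir365-2 stand at the top, Mir365-1 near 0 and Mir193b among the genes higher in replicate 1.

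Markers of other tissues also differed between the libraries beside Mir193a, Mir365-2 and Mir193b. The counts below stand against 30.2% of all tested genes higher in replicate 2 and 32.4% higher in replicate 1. Striated muscle miRNAs, of which 4 of 9 were tested and 4 were higher in replicate 1, summed to 598 CPM in replicate 1 and 81.2 CPM in replicate 2. The 4 were Mir206 (737 and 182 reads) and, almost only in replicate 1, Mir208a (231 and 0), Mir208b (157 and 1) and Mir499 (420 and 3). Mir1a-1, Mir133a-1, Mir133a-2 and Mir133b were at 0, which covers only reads that align to a single place. Epithelial miRNAs, with 4 of 5 tested genes higher in replicate 2, summed to 1192 and 1871 CPM. Without Mir203, which is also in the brown fat list, the sums were 44.4 and 254 CPM. The remaining tested gene of the epithelial list, Mir429 (19 and 8 reads, log2 ratio -0.98), pointed the other way and did not pass. Endothelial miRNAs, with 2 of 2 tested genes higher in replicate 1, summed to 64764 and 33414 CPM. Almost all of that sum was Mir126a, with 64752 and 33412 CPM, while Mir126b had 31 and 3 reads. Neuroendocrine miRNAs, with 4 of 4 tested genes higher in replicate 1, summed to 66107 and 56588 CPM, and to 3664 and 2547 CPM without Mir375, a miRNA of endocrine cells. White fat miRNAs, of which 10 were tested, 5 higher in replicate 1 and 3 in replicate 2, summed to 97009 and 80025 CPM. That list also holds Mir375, with 62443 and 54040 CPM, and without it the sums were 34565 and 25985 CPM. Leukocyte miRNAs, of 6 tested 1 higher in each library, were at 3045 and 2955 CPM, and erythroid miRNAs, with 2 of 3 tested higher in replicate 1, at 902 and 490 CPM. Kidney miRNAs were at 38849 and 43425 CPM, most of it Mir10a with 31017 and 36714 CPM. Of the 5 tested in that list Mir10a was higher in replicate 2, Mir192 and Mir30a were higher in replicate 1, and the median log2 ratio was -0.18. Their part in the difference of the members was not tested. In bulk tissue fewer cells of a type and less RNA per cell cannot be told apart. A difference in how the libraries were made was not tested either, and unmapped reads were 40.6% in replicate 1 and 29.8% in replicate 2. Genes of the same cluster differed in opposite directions in some cases, as Mir23a (log2 ratio 1.18) and Mir27a (-0.69), or Mir145a (1.07) and Mir143 (-0.59). In others they went the same way, as Mir132 (-1.37) and Mir212 (-1.44).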

How the data were processed

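The deposited files give raw counts of reads per miRNA gene for each library in 3 columns (strand ignored, own strand, opposite strand), made on mm10 with GENCODE M21, per the deposited notes. No aligner, counting program or trimming step is named in the labels or headers. Their second value column was used as own strand; the members had 0 counts in the opposite-strand column. Rows that name no gene (40.6% unmapped, 24.0% aligned to several places and 8.94% in no gene in replicate 1; 29.8%, 28.0% and 9.44% in replicate 2) were left out, leaving 2590051 and 2291030 counts, 26.4% and 32.8% of reads. The build is of C57BL/6J, so reads with CAST/EiJ alleles may be missing, which was not tested.

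CPM, ratios and exact intervals (95%) were computed with scipy 1.17.1. TMM factors (edgeR 4.0.16, 1.01 and 0.987) came from genes with a summed count of at least 20, and log2 ratios used a prior count of 0.5. The threshold was an adjusted p of 0.05. The exact test was tested on simulated data with counting error only. That is its own assumption, so the simulation says nothing of other spread between libraries. DESeq2 1.42.0 size factors, total counts, strand ignored, other count minimums, a prior count of 5, values per hairpin base and each library alone were alternatives. All 4 members matched RefSeq sequences. The members and lists were chosen with earlier results of these data known. Genes named were the members, the brown fat list with at least 10 reads in a library, the 3 nearest in level to each member, genes sharing a seed and the nearest miRNA gene; any others were named after their values were seen.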

Additional observations from a re-analysis of the deposited data

Results flagged for a closer look

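Reads that align to several places lie outside every comparison, and they numbered 2357429 in replicate 1 and 1958627 in replicate 2, or 0.910 and 0.855 for each counted read. They were flagged because they are signal in a class that the comparisons do not use, and full-length miR-365-3p reads fall in it by the sequence of the hairpins. Their genes are not named in the tables.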

How the results depend on the processing

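Of 81 values recomputed under another setting with both libraries kept, 75 were labelled as kept. Tested values had to keep their side of the threshold and, where they passed, their direction. Untested levels and ratios had to stay within 1 SD. For numbers of genes called the rule was looser, a set ratio to the main value, which 180 against 230 met. Some values could not change. The members had no opposite-strand reads, so their ratios with strand ignored were fixed, and the prior count does not enter the p-value. The 75 therefore do not measure stability. Mir193a, Mir365-2 and Mir193b passed in the same direction under every scaling, prior and minimum that gave a value, with log2 ratios of 1.25 to 1.39, 0.78 to 0.91 and -0.50 to -0.36. Mir365-1 passed under none, from -0.06 to 0.09. With 1 library left out, the log2 ratio of Mir193a over Mir193b ran from -0.51 to 1.25 and that of the cluster sums from -0.43 to 1.28, so the direction of both rests on which library is taken. Leaving out 1 of 2 libraries cannot move a mean by more than 1 SD, so the other values from a single library, such as 370 or 943 CPM for Mir193a, do not show stability. With all reads as denominator the levels were 203, 12.0, 135 and 3.58 per 1000000 reads for Mir193a, Mir365-2, Mir193b and Mir365-1, through the larger denominator. With strand ignored Mir365-1 was at 13.9 CPM, through the smaller total. Per base of hairpin the log2 ratio of Mir193a over Mir365-2 was 4.73. Between 180 and 230 miRNA genes in all, and 16 to 18 of the brown fat list, were called. With a minimum of 200 reads Mir365-2 and Mir365-1 could not be tested. The library difference cannot be computed with a library left out. No paired analysis was possible because there is only 1 group. Depth limits Mir365-1 most, with 31 and 28 reads.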
